A study of Mus musculus with 6 samples.

Results

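The VEGF ligands Vegfa, Vegfb and Vegfc, the receptors Flt1, Kdr and Flt4, the co-receptors Nrp1 and Nrp2, and the pan-endothelial markers Pecam1 and Cdh5 were followed in embryonic mouse pancreas. The 10 genes were chosen by name, with earlier results of these data known, and all 10 were found among the 23337 gene symbols counted. The gene lists used below were also chosen with those results known. Their shares beside those of all genes are therefore a description only. Pancreas was dissected from NMRI embryos at E13.5. The mutant group was 3 pools from Prox1-nullyzygous embryos (genotype Prox1 GFPCre/D in the labels), and the control group was 3 pools from wildtype embryos. Each pool held 5 to 6 pancreata and gave 1 library. Prox1 encodes a homeodomain transcription factor of pancreatic epithelium and of lymphatic endothelium. The label names neither the deleted part of the locus nor the cells that express the GFPCre allele, and control embryos are not said to carry either allele.

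VEGF-A binds Kdr, the main signalling receptor of blood endothelium, and Flt1, which binds it tightly, signals weakly and is also made as a soluble decoy. VEGF-B binds Flt1, and VEGF-C binds Flt4 and, once processed, Kdr. Neuropilins 1 and 2 present VEGFs to these receptors and also bind class 3 semaphorins, and they are found on neurons and mesenchyme as well as on vessels. In the pancreas, epithelium is a source of VEGF-A, and endothelium lies beside the epithelium from the earliest bud stages. Pecam1 and Cdh5, the adhesion molecules PECAM-1 and VE-cadherin, mark endothelial junctions. Pecam1 is also found on platelets and leukocytes.

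The libraries held 16060424 to 17633867 counted reads, so 1 CPM (reads relative to a library size scaled by TMM) stood for 15.9 to 17.5 reads. Mutant pool 1 and control pool 3 had nearly no counts of Xist, the RNA that coats the inactive X (0.126 and 0.526 CPM), and the other 4 pools had 2015 to 2814 CPM. Prox1 itself had 83.6, 104.5 and 91.7 CPM in mutant pools 1 to 3, against 105.3, 102.8 and 106.6 CPM in control pools 1 to 3. It was not called (log2 fold change -0.17, SE 0.074, edgeR adjusted p = 0.235). The deleted part is not named and the counts are per gene, not per exon. These values therefore cannot settle whether the genotype labels hold. All 40 genes of a pan-endothelial list and all 10 of a pancreatic epithelial list were tested, and none was at 0 in all libraries.

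The start-proximal sequences of Nrp1 and Flt1, the called genes described below, and of Kdr, the main VEGF receptor, are shown from RefSeq on GRCm38.p6. Each is the 250 bases before the annotated start, 5′ to 3′ on the strand of the gene. Capitals mark the GC box letters GGGCGG or CCGCCC and the ETS letters CCGGAA or TTCCGG. The Kdr window holds 3 annotated exon bases and the other two hold 0, and the Nrp1 window lies within the gene as GENCODE M21 draws it. The windows lie at chr8:128358823-128359072 on the plus strand for Nrp1, chr5:147726012-147726261 on the minus strand for Flt1 and chr5:75978456-75978705 on the minus strand for Kdr.
Nrp1: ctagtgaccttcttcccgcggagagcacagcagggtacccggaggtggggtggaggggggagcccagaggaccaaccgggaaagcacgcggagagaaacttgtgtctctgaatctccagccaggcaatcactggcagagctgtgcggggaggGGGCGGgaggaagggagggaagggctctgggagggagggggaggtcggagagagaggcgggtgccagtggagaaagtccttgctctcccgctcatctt
Flt1: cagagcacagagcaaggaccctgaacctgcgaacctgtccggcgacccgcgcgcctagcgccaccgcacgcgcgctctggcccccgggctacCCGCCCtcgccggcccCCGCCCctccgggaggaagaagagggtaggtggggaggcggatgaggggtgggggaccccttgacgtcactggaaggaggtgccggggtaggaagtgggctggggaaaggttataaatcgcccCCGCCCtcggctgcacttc
Kdr: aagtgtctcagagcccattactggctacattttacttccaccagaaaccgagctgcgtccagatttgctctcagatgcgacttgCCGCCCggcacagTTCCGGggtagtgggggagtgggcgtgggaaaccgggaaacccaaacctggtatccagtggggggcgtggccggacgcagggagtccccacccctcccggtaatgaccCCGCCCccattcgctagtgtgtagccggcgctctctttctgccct
The GC box letters occurred 1 time in the Nrp1 window, 3 times in the Flt1 window and 2 times in the Kdr window, and 32.7% of all 32851 RefSeq windows of this length held them. The ETS letters occurred 1 time in the Kdr window and in neither of the other two, and 12.0% of all windows held them. The core letters ACGTG or CACGT of the hypoxia response element were in none of these 3 windows and in 16.6% of all windows. Both strands were searched for each motif, and the 3 motifs did not overlap in these windows.

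Among the 10 genes, 2 rose in mutants, 0 fell and 8 were not called. Across all 14687 genes tested, 7.95% were called: 3.67% were higher in mutants and 4.28% lower. Nrp1 rose by 1.33-fold and Flt1 by 1.30-fold. Kdr, Pecam1 and Cdh5 stood 1.17-fold, 1.17-fold and 1.18-fold above controls without being called, and Vegfa, Vegfb and Flt4 stood at 0.989, 1.01 and 1.01 times the control level. The median log2 fold change of the 10 genes was 0.23, beside 0.00055 for all genes tested. DESeq2 called 3 of the 10 and 8.01% of its genes, limma voom 2 and 7.59%, and total-count scaling 2 and 8.03%. A fit with the replicate number as a term, which the labels do not support as a pairing, called 5 and 7.75%. With 1 control pool dropped, edgeR called 1, 2 and 1 of the 10 for pools 1, 2 and 3, beside 4.24%, 9.57% and 5.38% of all genes. With 1 mutant pool dropped, it called 1, 2 and 1 for pools 1, 2 and 3, beside 5.17%, 4.37% and 5.22%. Because the pools are whole organs, more endothelial cells, more RNA per endothelial cell and changes in other cell types cannot be told apart in any of these values.

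**Figure D1:**
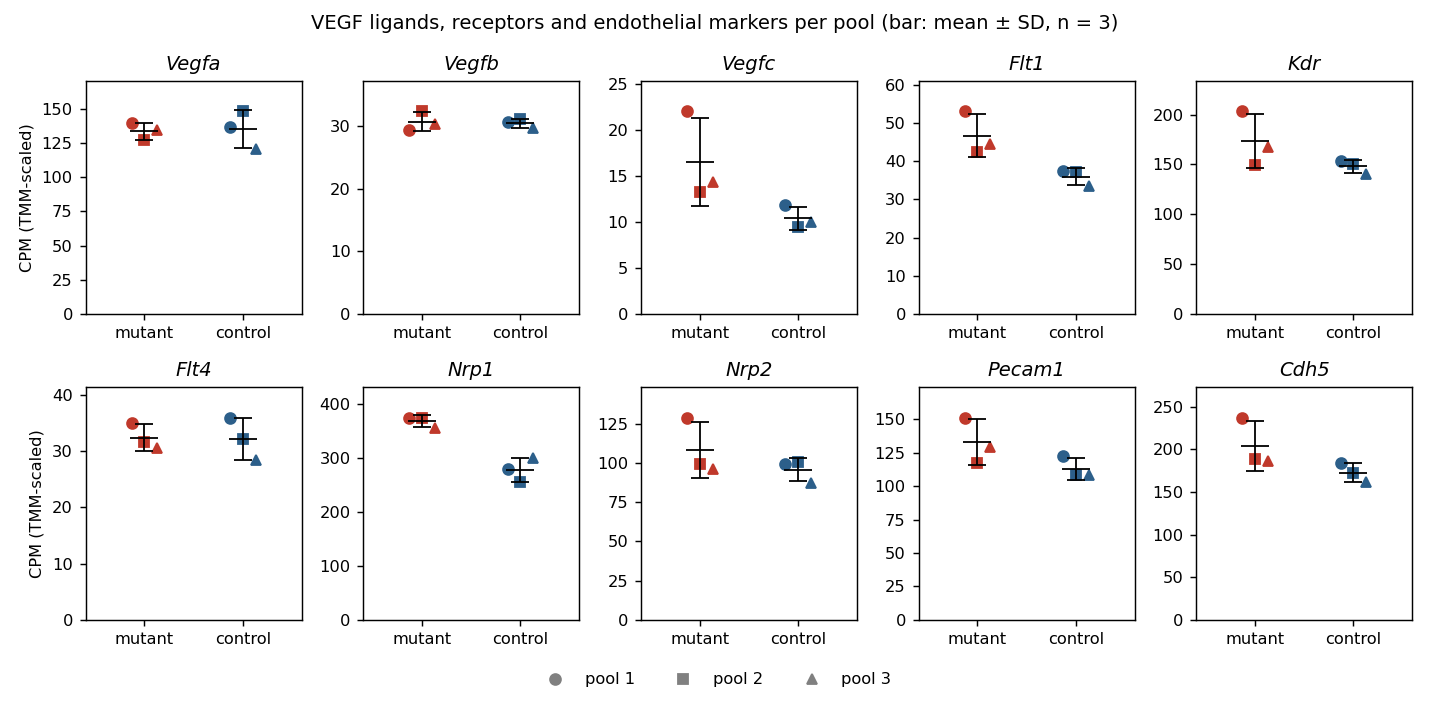
Level of each of the 10 genes in CPM (TMM-scaled, vertical axis from 0) in 3 mutant and 3 control pools; symbols mark the pool number and bars the mean ± SD. Nrp1, Flt1, Vegfc and Cdh5 have no overlap between the groups, and mutant pool 1 is the highest of the 6 pools for Vegfc, Flt1, Kdr, Nrp2, Pecam1 and Cdh5 and is level with mutant pool 2 for Nrp1.

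Nrp1 (chr8:128358604-128503363, plus strand, ENSMUSG00000025810.9; all positions are GENCODE M21 on GRCm38) encodes the co-receptor for VEGF-A and semaphorin 3A. It had 375, 375 and 355 CPM in mutant pools 1 to 3, against 279, 255 and 299.6 CPM in control pools 1 to 3. The lowest mutant pool stood above the highest control pool, and mutant pool 1 was level with mutant pool 2. The means were 368 ± 11.4 CPM in mutants and 278 ± 22.5 CPM in controls (SD, n = 3 each). The log2 fold change was 0.41 (SE 0.059, 95% interval 0.29 to 0.52), and the gene was called by edgeR (adjusted p = 0.00429). It was called without any 1 of the 6 pools, with log2 fold changes of 0.34 to 0.46.

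Nrp2 (chr1:62703285-62818695, plus strand, ENSMUSG00000025969.15) encodes the co-receptor for VEGF-C and semaphorin 3F. It had 129, 99.6 and 96.3 CPM in mutant pools, against 99.4, 100.5 and 87.6 CPM in control pools. Only mutant pool 1 stood above the controls, and the groups overlapped. Nrp2 was not called, with a log2 fold change of 0.18 (SE 0.108, interval -0.04 to 0.39; edgeR adjusted p = 0.415), or 0.03 without mutant pool 1 and -0.03 also without control pool 3.

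Flt1 (chr5:147561604-147726011, minus strand, ENSMUSG00000029648.13) encodes VEGFR1. It had 53.1, 42.5 and 44.6 CPM in mutant pools, against 37.4, 37.1 and 33.4 CPM in control pools. Every mutant pool was above every control pool, with mutant pool 1 the highest. The log2 fold change was 0.38 (SE 0.091, interval 0.20 to 0.55), called by edgeR at an adjusted p of 0.0379. The Flt1 call was lost on dropping control pool 1 (edgeR adjusted p = 0.0864), control pool 3 (0.113), mutant pool 1 (0.0812) or mutant pool 3 (0.0724). With the pair of low-Xist pools dropped, its log2 fold change was 0.22 (edgeR adjusted p = 0.151). Gene counts do not separate the membrane and soluble forms of Flt1.

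Kdr (chr5:75932827-75978458, minus strand, ENSMUSG00000062960.10) encodes VEGFR2. It had 203, 149.7 and 168 CPM in mutant pools, against 153, 151 and 141 CPM in control pools. Mutant pool 2 lay within the range of the controls, while the other mutant pools were above it. The log2 fold change was 0.23 (SE 0.097, interval 0.04 to 0.42) and was not called (edgeR adjusted p = 0.221). On dropping mutant pool 1 it was 0.10, and on dropping both low-Xist pools 0.06.

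Flt4 (chr11:49609263-49652739, plus strand, ENSMUSG00000020357.3) encodes VEGFR3 of lymphatic and sprouting endothelium. It had 35.1, 31.7 and 30.6 CPM in mutant pools, against 36.0, 32.2 and 28.5 CPM in control pools. The mutant range lay wholly within the control range. The log2 fold change was 0.01 (SE 0.094, interval -0.17 to 0.19; edgeR adjusted p = 0.974), and its sign turned to -0.02 with total-count scaling.

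None of the 3 ligands was called by edgeR. Vegfa (chr17:46016993-46032369, minus strand, ENSMUSG00000023951.17) had 139.6, 127 and 135 CPM in mutant pools, against 137, 148 and 121 CPM in control pools. Its groups overlapped fully, and the log2 fold change of -0.02 had a 95% interval of -0.16 to 0.13 (edgeR adjusted p = 0.940). Vegfb (chr19:6982473-6987651, minus strand, ENSMUSG00000024962.13) had 29.4, 32.4 and 30.4 CPM in mutant pools, against 30.6, 31.2 and 29.7 CPM in control pools. Its groups overlapped too, with a log2 fold change of 0.01 and an interval of -0.11 to 0.13 (edgeR adjusted p = 0.955).

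Vegfc (chr8:54077606-54187096, plus strand, ENSMUSG00000031520.6) encodes the lymphangiogenic ligand. It had 22.0, 13.2 and 14.4 CPM in mutant pools, against 11.8, 9.44 and 9.93 CPM in control pools. The groups did not overlap, and mutant pool 1 stood well above the other 2 mutant pools. The log2 fold change of 0.66 (SE 0.193, interval 0.29 to 1.04) was the largest of the 10 genes and was not called by edgeR (adjusted p = 0.0743), while the DESeq2 Wald test called it (adjusted p = 0.0109). On dropping mutant pool 1 it was 0.41 (edgeR adjusted p = 0.134).

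Both junction markers stood slightly higher in mutants without being called. Pecam1 (chr11:106654217-106750628, minus strand, ENSMUSG00000020717.19) had 151, 117 and 129.6 CPM in mutant pools, against 122.6, 108.4 and 108.2 CPM in control pools. Cdh5 (chr8:104101625-104144511, plus strand, ENSMUSG00000031871.9) had 237, 189 and 186 CPM in mutant pools, against 184, 173 and 161 CPM in control pools. Mutant pool 1 was the highest pool for both, mutant pool 2 of Pecam1 lay within the control range, and the Cdh5 groups were separated by a narrow gap. The log2 fold changes were 0.23 (SE 0.091, interval 0.05 to 0.41) for Pecam1 and 0.24 (SE 0.093, interval 0.06 to 0.42) for Cdh5. Neither was called by edgeR, with adjusted p of 0.179 for Pecam1 and 0.170 for Cdh5. On dropping mutant pool 1 the log2 fold changes were 0.13 for Pecam1 and 0.12 for Cdh5, and on dropping both low-Xist pools 0.09 and 0.07.

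**Figure D2:**
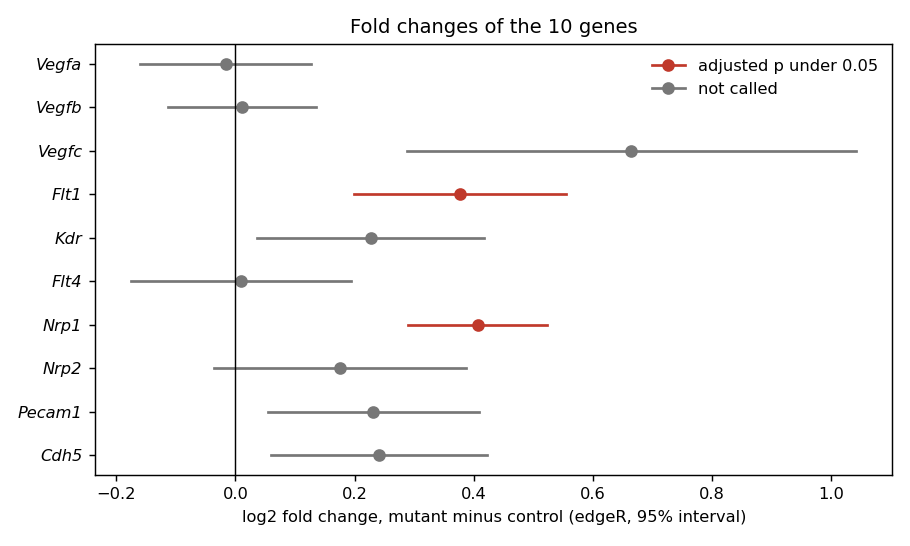
Log2 fold change, mutant minus control, of the 10 genes (horizontal axis) with its 95% interval; red genes had an edgeR adjusted p under 0.05. Nrp1 at 0.41 and Flt1 at 0.38 are red, and Vegfc has the largest value, 0.66, and the widest interval. The intervals are normal, narrower than the edgeR test implies and not adjusted over genes.

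In all, 4 of the 10 genes, Nrp1, Flt1, Vegfc and Cdh5, had no overlap between the groups, beside 26.4% of all genes tested. A log2 fold change above 0 was found for 9 of the 10 genes, beside 50.2% of all genes tested. Those of Vegfb and Flt4 were only 0.01 each, and both turned negative with total-count scaling, at -0.016 and -0.017. On dropping both low-Xist pools, Flt4 and Nrp2 were negative, at -0.134 and -0.032. Mutant pool 1 was the highest pool for 7 of the 10.

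Levels of different genes were compared per kilobase of annotated exon (RPKM). In mutants, Cdh5 stood at 48.6 ± 6.88 RPKM, Nrp1 at 37.6 ± 1.17, Vegfa at 31.2 ± 1.45, Pecam1 at 21.3 ± 2.77, Kdr at 19.2 ± 3.01, Vegfb at 19.2 ± 0.946, Nrp2 at 9.15 ± 1.53, Vegfc at 6.75 ± 1.95, Flt4 at 3.94 ± 0.287 and Flt1 at 3.46 ± 0.418 RPKM (SD, n = 3). In controls, the order was Cdh5 at 41.1 ± 2.68 RPKM, Vegfa at 31.6 ± 3.25, Nrp1 at 28.4 ± 2.30, Vegfb at 19.0 ± 0.452, Pecam1 at 18.1 ± 1.33, Kdr at 16.4 ± 0.728, Nrp2 at 8.09 ± 0.604, Vegfc at 4.25 ± 0.513, Flt4 at 3.91 ± 0.454 and Flt1 at 2.66 ± 0.163 RPKM (SD, n = 3). Kdr was thus the most abundant of the 3 receptors and Vegfa of the 3 ligands in both groups. The order depends on the exon length used, and the annotation behind the counts is not given. Flt1 had 13504 exon bases and Flt4 8232, though their coding parts were 4091 and 4089 bases. In mean CPM, Flt1 stood above Flt4, at 46.7 against 32.4 in mutants and 36.0 against 32.2 in controls. Nrp1 and Vegfa exchanged places: their ranges were apart in mutants, at 36.3 to 38.3 and 29.7 to 32.6 RPKM, but overlapped in controls, at 26.0 to 30.6 and 28.2 to 34.6 RPKM. Among other neighbours in the order, the pool ranges overlapped for Pecam1, Kdr and Vegfb, for Nrp2 and Vegfc and for Flt4 and Flt1 in mutants, and for Vegfb and Pecam1 and for Vegfc and Flt4 in controls. No exon of another gene on the opposite strand overlapped the exons of these 10 genes in GENCODE M21, and on the same strand only Mir1903 did, over 80 bases of Nrp1.

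To set each gene against the endothelial markers of the same pool, its CPM was divided by the summed CPM of Pecam1 and Cdh5. With 3 pools against 3, the exact two-sided permutation test cannot give a p below 0.1, and none of the 8 genes reached an adjusted p below 0.2 over the 8. Kdr overlapped between groups, at 52.3%, 48.9% and 53.1% in mutant pools, against 50.0%, 53.7% and 52.2% in control pools (exact permutation p = 0.7). Flt1 stood at 13.7%, 13.9% and 14.1% in mutant pools, against 12.2%, 13.2% and 12.4% in control pools (exact permutation p = 0.1). The Flt1 groups did not overlap, with mutants higher.

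Flt4 stood at 9.02%, 10.4% and 9.68% of the marker sum in mutant pools, against 11.7%, 11.4% and 10.6% in control pools (exact permutation p = 0.1). Here the mutants were the lower group, again without overlap. Vegfa was also lower against the marker sum, at 35.9%, 41.6% and 42.6% in mutant pools, against 44.6%, 52.8% and 44.8% in control pools (exact permutation p = 0.1). Vegfc was higher, at 5.66%, 4.31% and 4.55% in mutant pools, against 3.86%, 3.36% and 3.69% in control pools (exact permutation p = 0.1). Nrp1 overlapped between groups, at 96.5%, 122% and 112% in mutant pools, against 91.0%, 90.7% and 111% in control pools (exact permutation p = 0.2). Vegfb and Nrp2 overlapped as well, with exact permutation p of 0.2 for Vegfb and 0.6 for Nrp2. In CPM, Flt4 and Vegfa overlapped between groups, with log2 fold changes of 0.01 and -0.02, while those of Pecam1 and Cdh5 were 0.23 and 0.24. The lower ratios of Flt4 and Vegfa thus go with a higher marker sum and not with lower CPM. The share of all genes without overlap in such a ratio was not taken.

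**Figure D3:**
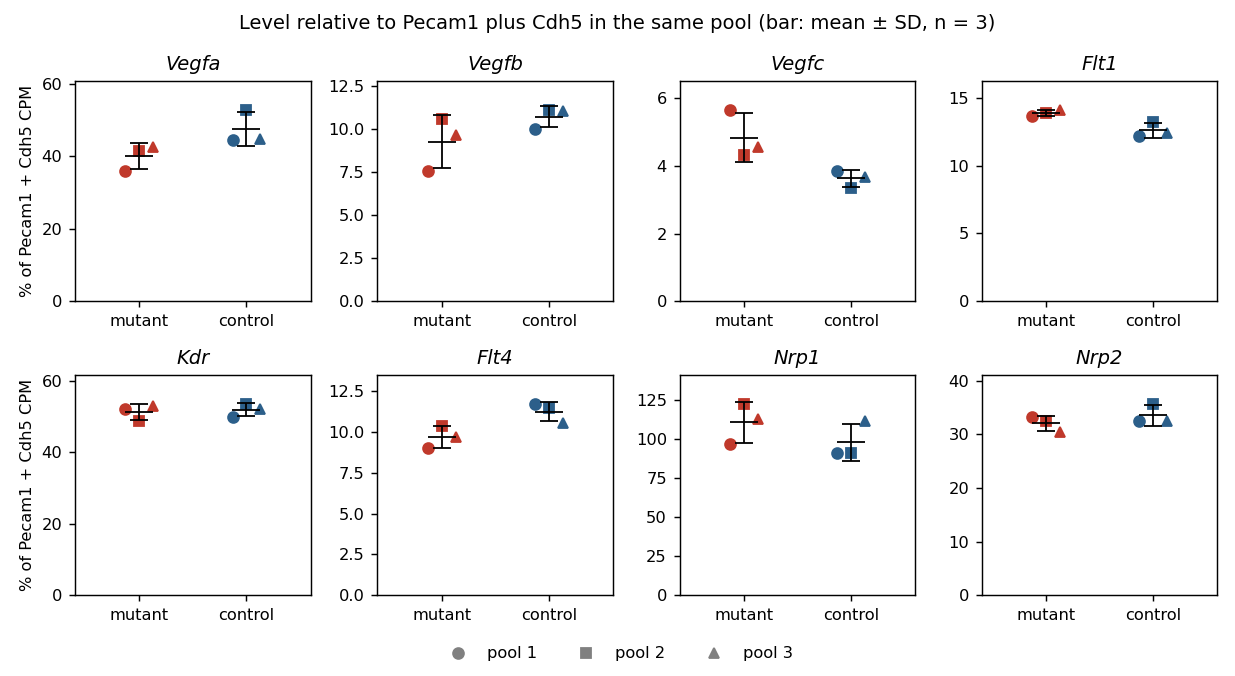
CPM of each gene as a percentage of the summed CPM of Pecam1 and Cdh5 in the same pool (vertical axis from 0), for 3 mutant and 3 control pools with mean ± SD. Flt4 and Vegfa are lower and Vegfc and Flt1 higher in mutant pools without overlap, while the Kdr means are 51.4% in mutants and 51.9% in controls. In CPM, Flt4 and Vegfa overlap between the groups.

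Neither of 2 further VEGF family ligands was called by edgeR. Vegfd, listed under its older symbol Figf, had 16.2, 12.0 and 8.64 CPM in mutant pools, against 6.81, 3.59 and 7.89 CPM in control pools. Its groups did not overlap, and its log2 fold change was 1.01 (SE 0.295), not called by edgeR (adjusted p = 0.0775) and called by DESeq2 (adjusted p = 0.00341). Pgf, encoding placental growth factor, a Flt1 ligand, was at 7.51 ± 0.691 CPM in mutants and 6.51 ± 1.11 CPM in controls (SD, n = 3 each). Of 3 genes for VEGF-C processing and handling, 0 were called by edgeR (1 at an unadjusted p under 0.05, and 0 by DESeq2), and Svep1, the most abundant, had a log2 fold change of 0.22 (SE 0.082). Of 9 genes of the hypoxia axis, which can drive Vegfa transcription, edgeR called 0 (1 at an unadjusted p under 0.05) and DESeq2 1, Epas1. Of all genes tested, edgeR called 7.95% and DESeq2 8.01%, so counts of 0 or 1 in lists this short do not set them apart. No share of all genes at an unadjusted p is given here. Hif1a had a log2 fold change of 0.04 (SE 0.038). Epas1, encoding HIF-2α, which is enriched in endothelium, had 86.2, 69.5 and 70.6 CPM in mutant pools, against 66.0, 58.2 and 54.2 CPM in control pools (log2 fold change 0.34, edgeR adjusted p = 0.0720).

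Among the semaphorins and plexins that share neuropilins with VEGF, 1 of 12 tested genes rose, 0 fell and 11 were not called, with a median log2 fold change of 0.06. The share called was near the 7.95% of all genes. The riser was Sema3f, the ligand of Nrp2, with 157, 176 and 160.5 CPM in mutant pools, against 109, 114 and 117 CPM in control pools. The groups were far apart, and the log2 fold change was 0.54 (SE 0.054, edgeR adjusted p = 0.000687). Plxnd1, an endothelial semaphorin receptor, was not called at 0.15 (SE 0.060).

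Downstream of Kdr, 1 of 14 tested signalling partners was called, a share near the 7.95% of all genes. Sphk1, encoding sphingosine kinase 1, fell to 16.6, 17.7 and 16.1 CPM in mutant pools, against 25.4, 25.6 and 25.6 CPM in control pools (log2 fold change -0.60, SE 0.072, edgeR adjusted p = 0.00156). Ptpn11, encoding the phosphatase SHP2, was the most abundant partner and had a log2 fold change of 0.01. Of 11 tested VEGF response and tip cell genes, 3 rose, 0 fell and 8 were not called, with a median log2 fold change of 0.21. Of all genes tested, 3.67% were called higher. The netrin receptor gene Unc5b rose by 0.31 (SE 0.057), Igfbp3, encoding a binding protein of insulin-like growth factors, by 0.38 (SE 0.072) and the potassium channel subunit gene Kcne3 by 1.08 (SE 0.237). Esm1, Apln and Dll4, markers of tip cells, had log2 fold changes of 0.02, 0.10 and -0.01 and were not called, and Cd34 had 0.20. On dropping control pool 1, edgeR called none of the 3, with adjusted p of 0.0564 for Unc5b, 0.0559 for Igfbp3 and 0.0736 for Kcne3. Igfbp3 was also lost on dropping mutant pool 2 (edgeR adjusted p = 0.0551), and Kcne3 was called in 1 of the 6 fits that dropped a pool.

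Of 40 pan-endothelial genes tested, 1 rose, 0 fell and 39 were not called, while 38 had a fold change above 0 and 14 had no overlap between groups. Over all genes tested, 3.67% were called higher, 50.2% had a fold change above 0 and 26.4% had no overlap. Several genes of this list, Vwf among them, are also known from blood cells or platelets, and whole-organ counts do not assign them to a cell type. The median log2 fold change was 0.22, close to the values of Kdr, Pecam1 and Cdh5. Mutant pool 1 was the highest pool for 36 of the 40, and its median gene stood 0.39 above the control mean on the log2 scale, against 0.12 in mutant pool 2 and 0.11 in mutant pool 3. Control pool 3 was the low end, at -0.12. The summed level was 2220, 1897 and 1930 CPM in mutant pools 1 to 3, against 1835, 1793 and 1614 CPM in control pools 1 to 3. Vwf, encoding von Willebrand factor, was the called gene, with 56.2, 41.7 and 38.2 CPM in mutant pools, against 31.8, 28.7 and 26.6 CPM in control pools (log2 fold change 0.64, SE 0.138, edgeR adjusted p = 0.0237). Dropping control pool 1 or control pool 3 ended the Vwf call, with edgeR adjusted p of 0.0533 and 0.0755. edgeR called 3 genes of this list on dropping control pool 2, beside 9.57% of all genes, and DESeq2 called 6, beside 8.01%.

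Tie1 and Tek, receptors of the angiopoietin system, had log2 fold changes of 0.18 (SE 0.088) and 0.20 (SE 0.147) and were not called. Neither were Emcn at 0.13, Cldn5 at 0.14, Plvap at 0.06, Sox17 at 0.23, Sox18 at 0.12 and the abundant Ets1 at 0.20. Among 5 tested genes of the angiopoietin axis, 1 rose, while 3.67% of all genes tested were called higher. The riser was Angpt1, the agonist of Tek made by perivascular and mesenchymal cells. It had 25.4, 16.6 and 12.1 CPM in mutant pools, against 8.66, 7.74 and 8.53 CPM in control pools. The groups were apart and mutant pool 1 was the highest (log2 fold change 1.11, SE 0.239, edgeR adjusted p = 0.0236). The Angpt1 call was lost with limma voom (adjusted p = 0.052) and, in edgeR, on dropping control pool 1 (adjusted p = 0.0783), control pool 3 (0.0624) or mutant pool 2 (0.0595). Angpt2, its antagonist, was at 4.02 ± 0.513 CPM in mutants and 2.95 ± 0.956 CPM in controls (SD, n = 3 each) and was not called.

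**Figure D4:**
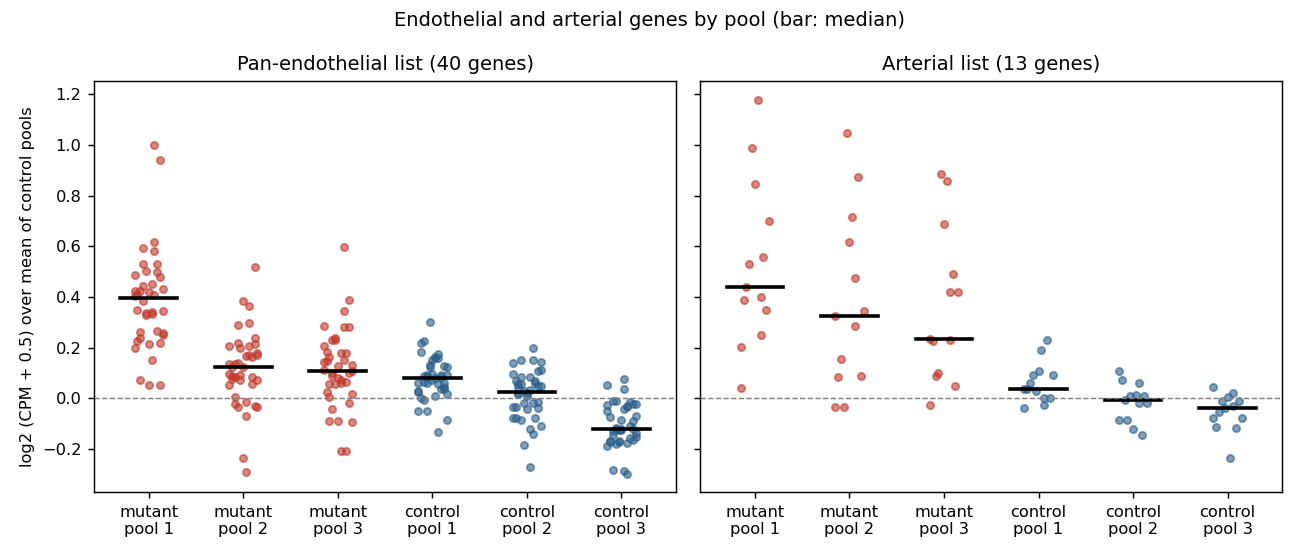
Each point is 1 gene of the pan-endothelial (40 genes) or arterial list (13 genes), as log2 of CPM + 0.5 over the mean of the control pools, by pool; bars are medians. The medians of mutant pools 1 to 3 are 0.39, 0.12 and 0.11 for pan-endothelial genes and 0.44, 0.33 and 0.23 for arterial genes, each above the medians of all 3 control pools; the lists were not tested against each other.

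Of 13 arterial genes tested, 7 rose, 0 fell and 6 were not called, with a median log2 fold change of 0.31, and 11 had no overlap between groups. Over all genes tested, 3.67% were called higher and 26.4% had no overlap. As the list was chosen with earlier results of these data known, its excess over these shares is not an independent finding. Cxcr4, encoding the chemokine receptor for CXCL12, had 33.2, 34.6 and 31.0 CPM in mutant pools, against 16.8, 16.6 and 16.1 CPM in control pools (log2 fold change 1.00, SE 0.071, edgeR adjusted p = 0.000143). Gja5, encoding the arterial gap junction protein connexin 40, had 37.1, 26.8 and 29.6 CPM in mutant pools, against 18.5, 16.3 and 13.6 CPM in control pools (log2 fold change 0.95, SE 0.142, edgeR adjusted p = 0.00483). Every mutant pool of both genes was above every control pool, and mutant pool 1 was the highest for Gja5 but not for Cxcr4.

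Hey2, encoding a Notch effector of arterial fate, had 23.1, 19.7 and 20.7 CPM in mutant pools, against 13.7, 11.6 and 12.7 CPM in control pools (log2 fold change 0.74, SE 0.0998, edgeR adjusted p = 0.00292). Jag1, encoding a Notch ligand, had 222, 259 and 249 CPM in mutant pools, against 183, 194 and 182 CPM in control pools (log2 fold change 0.39, SE 0.060, edgeR adjusted p = 0.00564). Gja4, Notch1 and Unc5b, the last already described with the tip cell genes, were the other called genes. Efnb2, the most abundant gene not called, had a log2 fold change of 0.24 (SE 0.088). Cxcr4, Jag1, Notch1 and Hey2 are also known from cells outside arteries, and whole-organ counts do not assign them to a cell type. On dropping single pools, 4 to 7 of the 13 were called, 4 being without control pool 1, and 4 were called on dropping both low-Xist pools. Of all genes, 4.24% were called without control pool 1, and 665 of 14732 without both low-Xist pools.

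Of 5 venous genes, 1 rose, the Vwf already described, and Nr2f2, encoding the venous regulator COUP-TFII, was not called at 0.20 (SE 0.083). Of 15 tested lymphatic genes, which include Flt4 and Nrp2, 3 rose, 0 fell and 12 were not called. Of all genes tested, 3.67% were called higher. Itga9, encoding an integrin subunit, rose by 0.59 (SE 0.082), Pdpn, encoding podoplanin, by 0.45 (SE 0.091) and Gja4, encoding connexin 37 and also on the arterial list, by 0.51 (SE 0.114). Itga9 was called in all 6 fits that dropped a pool, and Pdpn and Gja4 in 2 each. Both calls were lost on dropping control pool 1 (edgeR adjusted p = 0.0644 for Pdpn and 0.0626 for Gja4), control pool 3 (0.0573 and 0.0881) or mutant pool 1 (0.0612 and 0.068), Pdpn also without mutant pool 2 (0.0767) and Gja4 without mutant pool 3 (0.0575). Ccl21a, a chemokine gene of lymphatic vessels, was at 0 in all libraries. Lyve1, a receptor of lymphatic endothelium and of macrophages, had 20.3, 18.03 and 14.9 CPM in mutant pools, against 27.9, 19.4 and 27.8 CPM in control pools (log2 fold change -0.50, SE 0.157, edgeR adjusted p = 0.0991), called by DESeq2 (adjusted p = 0.0249).

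Lists of other cell types in the organ held called genes too. Over all genes tested, 3.67% were called higher and 4.28% lower. Of 9 tested pericyte genes 3 rose, Cspg4 by 0.63, Abcc9 by 0.64 and Kcnj8 by 0.64 on the log2 scale, Pdgfrb stood at 0.17 without a call, and the list summed to 1228 to 1325 CPM in mutants and 965 to 1088 CPM in controls. Of 10 mesenchymal genes 2 rose, Col1a1 by 0.31 and Barx1 by 0.39, and 0 fell, Col3a1 stood at 0.29 without a call, with sums of 8804 to 10198 CPM in mutants and 7835 to 8130 CPM in controls. Of 10 epithelial genes 0 rose and 2 fell, Cdh1 by 0.42 and Nkx6-1 by 0.45, and Cpa1 was not called at 0.46, with sums of 3290 to 4105 CPM in mutants and 3036 to 4041 CPM in controls. The median log2 fold change of the epithelial genes was -0.23, and 3 of the 10 were above 0. Of 10 neural genes 0 rose and 5 fell, among them Tubb3 by 1.46, Elavl4 by 1.23 and Ret by 0.79, and Stmn2 was not called at 0.15, with sums of 80.4 to 89.0 CPM in mutants and 119 to 183 CPM in controls. On dropping single pools, 3 to 5 pericyte, 0 to 3 mesenchymal and 0 to 1 epithelial genes were called higher and 1 to 4 epithelial and 4 to 7 neural genes lower. The same fits called 4.24% to 9.57% of all genes. The mesenchymal count was 0 without control pool 1, control pool 3 or mutant pool 2. The part of these shifts in the Nrp1 and Flt1 differences was not tested.

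Of 10 erythroid genes 8 rose, among them Hemgn by 3.40, Rhag by 2.98 and Gata1 by 2.31 on the log2 scale, and 0 fell, Alas2 standing at -0.05, with sums of 114 to 274 CPM in mutants and 63.1 to 99.9 CPM in controls, and mutant pool 1 was the highest pool for 10 of 10. Without control pool 1, 3 of the erythroid genes were called, beside 4.24% of all genes, and without control pool 3, 4, beside 5.38%. With all pools, 3.67% of all genes tested were called higher and 4.28% lower. Of 10 megakaryocyte and other blood cell genes 2 rose, the myeloid gene Mpo by 3.59 and the platelet gene Ppbp by 1.99, Kit stood at -0.14, with sums of 158 to 197 CPM in mutants and 140 to 141 CPM in controls. Of 10 macrophage genes 0 were called by edgeR (2 at an unadjusted p under 0.05, and 0 by DESeq2), Mrc1 standing at -0.15, with sums of 291 to 344 CPM in mutants and 286 to 336 CPM in controls. Of 7 tested hepatocyte genes 0 rose and 4 fell, Alb by 3.16, Afp by 1.58, Serpina1a by 1.20 and Ttr by 0.88, and Trf was not called at -0.10, with sums of 213 to 246 CPM in mutants and 377 to 519 CPM in controls. On dropping single pools 3 to 4 hepatocyte genes were called lower, the Serpina1a call being lost without control pool 1 (edgeR adjusted p = 0.0732), control pool 2 (0.0817), mutant pool 1 (0.116) or mutant pool 2 (0.137). The part of blood cells in the Pecam1, Vwf and mutant pool 1 values was not tested.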

How the data were processed

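The members and gene lists were chosen with earlier results of these data known, and the motifs, window length and printed windows after values were seen. RNA was sequenced in 6 libraries, 1 per pool. The deposited values are raw read counts per gene symbol, not normalized by the authors, per the file headers. Per the submitters' processing notes, cutadapt 1.13, HTSeq 0.6.1p1, STAR, DESeq2 and the build mm10 were used; roles, annotation and strand setting: not given in the sources used here. The labels' protocol names Trizol, and the design text a column kit, for RNA extraction.

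The test was edgeR 4.0.16 (R 4.3.3): filterByExpr with a minimum count of 10, TMM scaling, and the quasi-likelihood test with group as the only term. Called means a Benjamini-Hochberg adjusted p under 0.05 over all 14687 genes tested. The SE is the log2 fold change (mutant minus control) over the root of F, with normal 95% intervals. Such intervals are narrower than the quasi-likelihood test implies and are not adjusted over the genes tested. An interval that leaves out 0 is therefore not a call. P-values measure the spread between these pools, which may share litters. RPKM used GENCODE M21 exon unions. Lists were described by counts and medians. The plot of lists by pool adds 0.5 CPM before the log. Named genes were the 10 members, a set of vessel genes, and from each list up to 4 called genes with the smallest adjusted p and the most abundant gene not called; Notch1 and Ccl21a were added after their values were seen. Alternatives were other scalings and filters, DESeq2 1.42.0, limma voom 3.58.1, a replicate block and dropped pools. The edgeR script was tested on simulated data. Vegfd was read under Figf, and some list genes under older symbols. A few genes that the rule names are not reported here.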

Additional observations from a re-analysis of the deposited data

How the results depend on the processing

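Nrp1 was called higher under every alternative run. On dropping single pools, 629 (without control pool 1) to 1421 genes (without control pool 2) were called, 282 to 696 higher and 343 to 725 lower. The same fits called higher 1 to 2 members, 0 to 1 VEGF-C processing, 0 to 3 tip cell, 0 to 1 VEGFR2 partner, 0 to 3 pan-endothelial, 4 to 7 arterial, 0 to 2 venous, 1 to 4 lymphatic, 0 to 1 angiopoietin, 3 to 5 pericyte, 0 to 1 macrophage, 3 to 8 erythroid, 0 to 3 mesenchymal and 0 to 1 epithelial genes, and lower 0 to 1 lymphatic and 1 to 4 epithelial genes. Flt1 ranged from 0.28 to 0.44. On dropping both low-Xist pools, 665 genes were called, 315 higher and 350 lower, with 1 member, 1 tip cell, 4 arterial, 1 lymphatic and 1 mesenchymal gene higher and 1 epithelial gene lower; log2 fold changes were 0.22 for Flt1, -0.134 for Flt4, -0.032 for Nrp2, -0.067 for Tek, -0.128 for Plvap, -0.019 for Sox18 and -0.016 for Apln. DESeq2 called Vegfc (0.67), and 1 further VEGF ligand, 1 hypoxia, 1 VEGFR2 partner, 6 pan-endothelial and 4 mesenchymal genes higher, and 2 VEGFR2 partners and 1 lymphatic gene lower. With no filter 2 pan-endothelial genes were called higher, with 1 CPM in 3 libraries 2 VEGFR2 partners lower, and with limma voom 0 angiopoietin genes. Total-count scaling called 2 VEGFR2 partners lower and 1 mesenchymal gene higher, and gave -0.016 for Vegfb, -0.017 for Flt4, -0.016 for Ptpn11 and -0.00101 for Esm1. Signs turned on dropping single pools for Vegfa (-0.0955 to 0.051), Vegfb (-0.029 to 0.041), Flt4 (-0.076 to 0.096), Ptpn11 (-0.028 to 0.030), Alas2 (-0.205 to 0.130), Stmn2 (-0.068 to 0.516), Plvap (-0.057 to 0.126), Esm1 (-0.092 to 0.174) and Dll4 (-0.054 to 0.012). With the replicate block, 5 members were called, adding Vegfc (0.65, edgeR adjusted p = 0.0172), Pecam1 (0.23, 0.0429) and Cdh5 (0.23, 0.0436), and 5 pan-endothelial, 1 hypoxia, 1 VEGFR2 partner and 1 macrophage gene. Same-numbered pools deviated together only weakly (r of 0.14, 0.10 and -0.05), and the labels name no shared litter or day, so the numbers were not taken to pair the pools. The causes of these changes were not tested. The 3 pools a group limit the precision of each value, and Kdr, Pecam1 and Cdh5 not being called does not show that they did not differ.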

Other observations

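The genes with patterns most like those of Kdr and Vegfa over the 6 pools were ranked by Pearson correlation of log2 CPM among 13232 genes, as a description with no test, since so many genes and 6 pools give high values readily. For Kdr they were Fech (0.997), Ccdc94 (0.985), Tjp1 (0.985), AI504432 (0.985) and Blvrb (0.981). Fech encodes ferrochelatase, the last enzyme of haem synthesis, and Blvrb encodes biliverdin reductase B. Kdr correlated at 0.96 with Pecam1 and at 0.94 with Cdh5. For Vegfa they were Bai2 (0.996), Slc39a13 (0.990), Lsp1 (0.983), E330013P06 (0.980) and Pkd1 (0.979).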
